A study of Mus musculus with 32 samples.

Results

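The 10 genes of an imprinted and postnatal growth network were followed in mouse brain arteries: Igf2, H19, Igf2bp2, Gpc3, Dlk1, Peg3, Mest, Plagl1, Cdkn1c, and Grb10. They were matched by Ensembl identifier, and all 10 were found among the 55357 genes of the count table. The set was selected on its known decline after birth and on measured values, since the rule cites Igf2bp2 and Gpc3 as lower in 12-month than in 3-month control mice. The difference between the control groups is therefore given below as a description, without a test.

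Brain arteries were profiled by RNA sequencing in 4 groups of 8 libraries each. Arteries at 3 months came from Notch3-/- mice, which lack a working copy of the smooth muscle receptor gene Notch3, and from Notch3+/+ mice. Arteries at 12 months came from TgNotch3R169C and non-Tg mice. TgNotch3R169C mice carry extra copies of rat Notch3 with a mutation that causes CADASIL, an inherited disease of small brain arteries, on a P1-derived artificial chromosome, and they keep the mouse gene. No group was treated, and both lines had been backcrossed to C57BL/6. Libraries were made from poly(A)-selected RNA of arteries dissected from the brain and frozen. The labels only number the libraries of each group. The study counts its sequenced replicates as mice, so that each library was taken as 1 mouse. Age differed together with line and genotype across the mutant groups, and these cannot be told apart between a 3-month and a 12-month group.

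Genomic imprinting silences 1 parental copy of a gene, and many imprinted genes set the pace of growth before birth. Paternally expressed members such as Igf2, Mest, Peg3, Dlk1, and Plagl1 generally favor growth, whereas maternally expressed members such as H19, Cdkn1c, and, in most tissues, Grb10 restrain it. Several of them are shut down together in many organs after birth. Igf2bp2, which binds Igf2 and other mRNAs, and Gpc3, a cell surface proteoglycan that limits growth and is altered in the Simpson-Golabi-Behmel overgrowth syndrome, are not imprinted in this way but belong to the same growth program.

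Notch3 itself followed the labels. Its level was 65.8 to 98.1 CPM (counts scaled to a common library size, 1000000) in Notch3+/+ and 13.7 to 18.5 CPM in Notch3-/- libraries, and 60.1 to 85.0 CPM in non-Tg and 108 to 219 CPM in TgNotch3R169C libraries. The log2 fold change was -2.37 ± 0.09 (SE) in Notch3-/- mice (edgeR quasi-likelihood test, adjusted p = 1.39e-10) and 1.31 ± 0.12 (SE) in TgNotch3R169C mice (adjusted p = 1.75e-05). Total counts per library ranged from 20289487 to 54481934. Xist was at 0.57 to 2.40 CPM in replicates 1 to 4 and at 1440 to 1832 CPM in replicates 5 to 8 of every group, so that each group held 4 libraries of each kind. Markers of smooth muscle, endothelium, pericytes, and fibroblasts were detected in every library. Of the 32 libraries, 8 stood apart by their content. Ttr, the leading choroid plexus gene, was at 7895 to 23151 CPM in Notch3-/- replicate 8, non-Tg replicates 2, 4, 5, and 6, and TgNotch3R169C replicates 5 and 8, and at no more than 329 CPM in the other 25. Prl, a pituitary hormone gene, reached 5815 CPM in Notch3+/+ replicate 5. Values without these 8 libraries are given below for Igf2bp2, Gpc3, Mest, Dlk1, Peg3, Plagl1, and Cdkn1c.

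The promoters of Igf2bp2 and Gpc3, which the rule cites, are shown here with every CpG dinucleotide in capitals, because CpG content separates promoter classes. Windows of 300 bases around each annotated start were taken from RefSeq (GRCm38.p6), which held a window for 8 of the 10 genes. H19 and Cdkn1c were not in that table. Igf2bp2 lies on chr16 and Gpc3 on chrX, both on the minus strand, and sequences run 5′ to 3′ along the gene.
Igf2bp2, chr16:22163250-22163549: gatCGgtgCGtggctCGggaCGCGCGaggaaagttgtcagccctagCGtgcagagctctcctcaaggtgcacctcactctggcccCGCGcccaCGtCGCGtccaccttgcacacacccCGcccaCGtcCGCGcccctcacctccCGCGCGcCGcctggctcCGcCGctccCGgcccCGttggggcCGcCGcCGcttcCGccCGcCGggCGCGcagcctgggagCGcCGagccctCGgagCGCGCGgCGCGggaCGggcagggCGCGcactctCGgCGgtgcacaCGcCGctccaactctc
Gpc3, chrX:52613925-52614224: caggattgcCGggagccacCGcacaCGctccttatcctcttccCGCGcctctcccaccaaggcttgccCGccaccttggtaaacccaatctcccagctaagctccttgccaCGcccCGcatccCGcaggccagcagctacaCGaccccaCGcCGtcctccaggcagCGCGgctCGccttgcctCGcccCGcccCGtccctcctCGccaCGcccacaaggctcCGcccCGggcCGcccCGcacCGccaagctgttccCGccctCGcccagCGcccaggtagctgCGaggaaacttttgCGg
The Igf2bp2 window holds 47 CpG dinucleotides in 76.7% G and C, and the Gpc3 window 30 in 70.7%. The median over all 32851 windows is 7, and 1.44% of windows hold at least as many as Igf2bp2 and 11.7% at least as many as Gpc3. Both genes thus have CpG-rich promoters. Neither window holds GTGGGAA, the sequence bound by RBPJ, the DNA-binding partner of Notch receptors, on either strand, and 6.38% of all windows do. This says only that these letters are not in the window.

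Among the 14 windows of the 8 genes, 1 of the 4 Igf2 windows holds GTGGGAA, at position 203 of 300. The other motif searched was the palindrome GGGGCCCC, which contains the core recognized by the zinc finger protein PLAGL1 and is present in 1.08% of all windows. It was found in the Peg3 window only, at position 50. Both are shown with the motif in capitals, since Igf2 is the central growth factor of the set and since Peg3 and Plagl1 varied together between libraries. The matches are descriptions of sequence, not of binding.
Igf2, chr7:142666767-142667066, minus strand: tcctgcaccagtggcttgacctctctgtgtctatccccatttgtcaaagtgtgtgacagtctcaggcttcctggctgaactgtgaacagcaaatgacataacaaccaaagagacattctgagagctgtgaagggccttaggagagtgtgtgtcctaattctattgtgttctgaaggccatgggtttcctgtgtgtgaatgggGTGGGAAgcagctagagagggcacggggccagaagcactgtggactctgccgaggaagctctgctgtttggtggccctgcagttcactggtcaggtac
Peg3, chr7:6730370-6730669, minus strand: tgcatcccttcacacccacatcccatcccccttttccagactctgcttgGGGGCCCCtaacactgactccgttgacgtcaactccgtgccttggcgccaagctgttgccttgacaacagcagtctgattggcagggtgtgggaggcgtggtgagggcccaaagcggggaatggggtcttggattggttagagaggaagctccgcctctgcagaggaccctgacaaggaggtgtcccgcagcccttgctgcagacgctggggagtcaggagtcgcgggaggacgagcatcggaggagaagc

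Per kilobase of annotated exon, Gpc3 was the most abundant member in the 3-month groups and Igf2bp2 the least abundant in all 4 groups. Median levels in Notch3+/+ arteries, in CPM per kilobase, were 70.8 for Gpc3, 50.8 for Cdkn1c, 26.7 for Igf2, 14.8 for Grb10, 10.3 for Peg3, 5.97 for Plagl1, 5.52 for H19, 2.65 for Mest, 1.73 for Dlk1, and 0.920 for Igf2bp2. In non-Tg arteries Cdkn1c, at 54.2 CPM per kilobase, stood above Gpc3, at 43.4. Genes known from fetal growth were thus detected in adult brain arteries. The lengths come from GENCODE vM21, which may differ from the annotation used for counting. All 10 genes passed the filter on low counts in every comparison, and the lowest count of any member in a library was 61, for Igf2bp2.

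**Figure D1:**
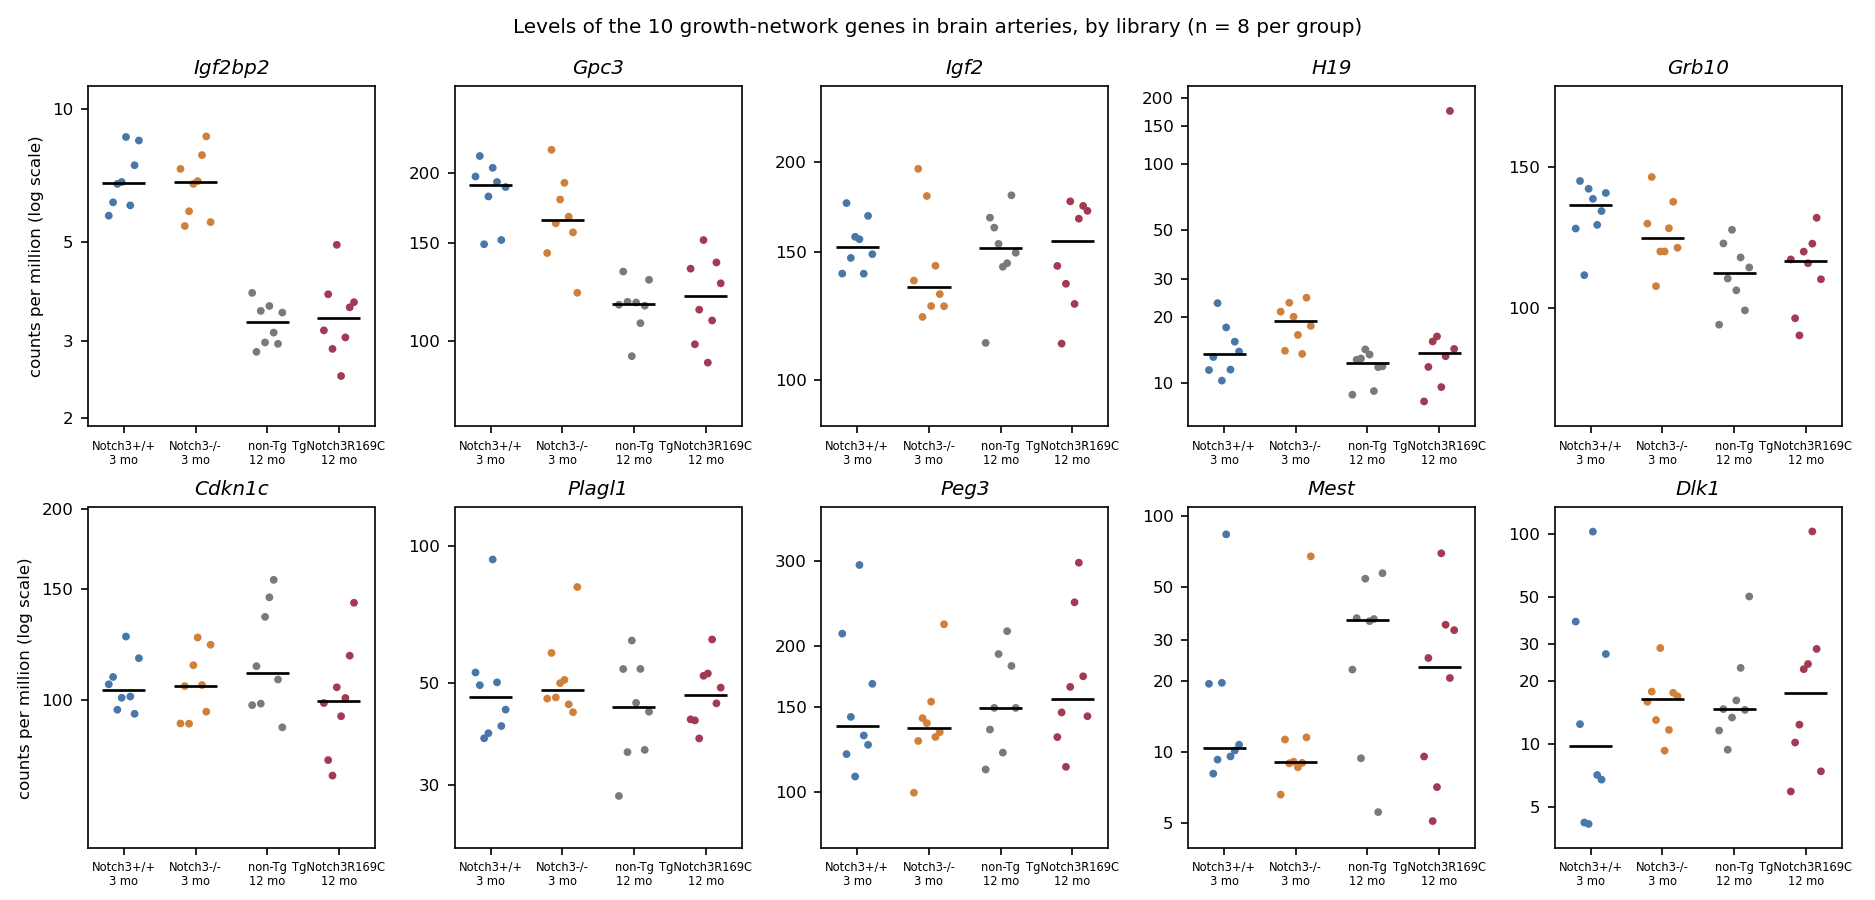
Level of each of the 10 genes in CPM on a log axis (vertical) in each library, by group (horizontal, 8 points per group in order of replicate number; the bar is the median). Igf2bp2 sits at 5.45 to 8.68 CPM in the 3-month groups and at 2.49 to 4.94 CPM in the 12-month groups, Igf2 shows no such step, and single libraries stand far above the rest for H19, Mest, and Dlk1.

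Igf2bp2 encodes an mRNA-binding protein of the IMP family, which stabilizes growth-related transcripts and is high in the embryo. Its level was lowest at 5.75, median 6.81, and highest at 8.66 CPM in Notch3+/+ mice, and 5.45, 6.83, and 8.68 CPM in Notch3-/- mice. At 12 months it was 2.83, 3.30, and 3.85 CPM in non-Tg mice and 2.49, 3.37, and 4.94 CPM in TgNotch3R169C mice. The control groups, whose difference chose the gene, did not overlap, and 0.803% of genes showed such a separation in this direction. Between the control groups, which chose the gene, the log2 fold change was -1.1. In the mutant groups, which the rule did not use, it was -0.98 ± 0.14 (SE; 95% CI -1.27 to -0.69), or 1.97-fold lower in TgNotch3R169C mice at 12 months than in Notch3-/- mice at 3 months (edgeR quasi-likelihood test, adjusted p = 0.000649). The 8 TgNotch3R169C libraries were all below the 8 Notch3-/- libraries, a separation in this direction that 0.286% of genes showed. In bulk arteries, fewer cells that express a gene and less RNA per cell cannot be told apart.

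Gpc3 encodes glypican 3, which is anchored to the cell surface, carries heparan sulfate, and modulates hedgehog, Wnt, and other growth signals. Its level was lowest at 149, median 191, and highest at 214 CPM in Notch3+/+ mice, and 122, 165, and 220 CPM in Notch3-/- mice. It was 94.1, 117, and 133 CPM in non-Tg mice and 91.6, 120, and 152 CPM in TgNotch3R169C mice. The control groups, which chose the gene, did not overlap, a separation in this direction that 0.803% of genes showed. The mutant groups overlapped. Between the controls the log2 fold change was -0.67. In the mutant groups it was -0.48 ± 0.12 (SE; 95% CI -0.73 to -0.23), or 1.39-fold lower at 12 months (edgeR quasi-likelihood test, adjusted p = 0.0344). Gpc3 lies on the X chromosome, and with Xist as a covariate the adjusted p was 0.0285, within a range of 0.00363 to 0.466 over the 11 alternatives.

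Igf2bp2 and Gpc3 were the only members called between the mutant groups, 2 of 10, both lower. Over all 17865 genes tested, 3.82% were called, 1.05% lower and 2.77% higher. The median log2 fold change of the 10 members was -0.003 and that of all genes 0.001, with 5 members below 0 and 5 above. Without the 8 libraries that stood apart, an alternative added after the data were seen, Igf2bp2 was at -0.97 (adjusted p = 0.00275) and Gpc3 at -0.49 (adjusted p = 0.0270). Igf2bp2 kept its call in 16 of 16 fits that left out a library, and Gpc3 in 9 of 16, losing it without Notch3-/- replicate 2, 4, 5, or 6 or TgNotch3R169C replicate 2, 5, or 6 (adjusted p up to 0.0691).

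Markers of smooth muscle, fibroblasts, endothelium, pericytes, and microglia and macrophages all had lower median summed levels in the 12-month than in the 3-month groups. In Notch3+/+, Notch3-/-, non-Tg, and TgNotch3R169C libraries, medians were 1913, 1924, 1642, and 1680 CPM for endothelium. They were 2956, 3022, 2863, and 2826 CPM for pericytes and 955, 1001, 934, and 921 CPM for microglia and macrophages. The summed level of 8 smooth muscle markers was 2081 to 3713 CPM in Notch3+/+, 1432 to 2205 CPM in Notch3-/-, 1145 to 1786 CPM in non-Tg, and 955 to 1483 CPM in TgNotch3R169C libraries. Notch3-/- libraries at 3 months thus overlapped non-Tg libraries at 12 months. All 8 markers were called lower in non-Tg than in Notch3+/+ mice (median log2 fold change -0.88), 3 were called lower in TgNotch3R169C than in Notch3-/- mice (-0.45), and 5 were called lower in Notch3-/- than in Notch3+/+ mice (-0.63). In the last comparison Igf2bp2 was at -0.04 (95% CI -0.29 to 0.20) and Gpc3 at -0.14 (95% CI -0.36 to 0.08). The summed level of 10 markers of meningeal and perivascular fibroblasts had medians of 5872 CPM in Notch3+/+, 5769 CPM in Notch3-/-, 5132 CPM in non-Tg, and 4986 CPM in TgNotch3R169C libraries. Of these 10, Col1a1, Col3a1, and Col1a2, which encode fibrillar collagens, were called lower between the controls, and Col3a1 between the mutants. The other markers of this list were not called. Its median log2 fold change was -0.094 between the controls and -0.098 between the mutants. Over all genes, 4.05% were called lower between the controls, 1.05% lower between the mutants, and 0.649% in either direction in Notch3-/- against Notch3+/+ mice.

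With the mean of the smooth muscle list as a covariate, Igf2bp2 was at -0.75 (edgeR quasi-likelihood test, adjusted p = 0.244, in a range from 3.98e-10 over the 11 alternatives) and Gpc3 at -0.48 (adjusted p = 0.466), so that neither was called. Over all genes, this covariate took the calls between the mutants from 682 to 59 of 17865. Between the controls it took them from 1398 to 0 of 17643. The lost calls are thus not particular to these 2 genes. With the fibroblast list, Igf2bp2 was at -0.95 (adjusted p = 0.00195) and Gpc3 at -0.43 (adjusted p = 0.0810), and with a list of 8 neuron markers, higher in TgNotch3R169C (median sum 556 CPM) than in Notch3-/- libraries (368 CPM), Gpc3 was at -0.42 (adjusted p = 0.215). Within groups, Gpc3 had r = 0.44 with the fibroblast list over 32 libraries (permutation p = 0.0122, adjusted 0.163) and rho = 0.46 (p = 0.0110, adjusted 0.110), from 0.21 to 0.65 in single groups. The value was 0.42 without the 2 libraries farthest from the median. With the smooth muscle list, r was 0.03 for Gpc3 and 0.25 for Igf2bp2 (rho -0.01 and 0.28, permutation p at least 0.144, adjusted at least 0.442). Within single groups this r ran from -0.15 to 0.35 for Gpc3 and from -0.19 to 0.72 for Igf2bp2. The part of smooth muscle, fibroblast, or neuron content in the lower levels of Igf2bp2 and Gpc3 was not tested.

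Igf2, the fetal insulin-like growth factor, was at similar levels in the 4 groups. It was at 140, 153, and 175 CPM (lowest, median, highest) in Notch3+/+, 122, 134, and 195 CPM in Notch3-/-, 113, 152, and 180 CPM in non-Tg, and 112, 155, and 176 CPM in TgNotch3R169C mice. The 4 groups overlapped. Its log2 fold change was -0.03 between the controls and 0.06 between the mutants (95% CI -0.19 to 0.30; edgeR quasi-likelihood test, adjusted p = 0.844), an interval that holds changes of up to 1.23-fold. Igf2 and Igf2os, an antisense transcript with 13.9% as many reads, overlap by 98 exonic bases, and whether strand was used in counting is not given in the sources used here.

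H19, the long noncoding RNA that shares an imprinted domain with Igf2 and is expressed from the other parental copy, was low in every library but 1. It was at 10.3, 13.6, and 23.2 CPM (lowest, median, highest) in Notch3+/+, 13.6, 19.2, and 24.6 CPM in Notch3-/-, 8.87, 12.4, and 14.3 CPM in non-Tg, and 8.26, 13.8, and 175 CPM in TgNotch3R169C mice. The value of 175 CPM was TgNotch3R169C replicate 7, and the next highest of that group was 16.4 CPM. With this library, the log2 fold change of H19 was 1.48 ± 0.59 (SE) against non-Tg mice (edgeR quasi-likelihood test, adjusted p = 0.655). Without it the value was 0.09. Against Notch3-/- mice it was 0.80 with the library and -0.58 without it (adjusted p = 0.0701), and DESeq2, which replaces outlying counts, gave -0.53 (adjusted p = 0.0195). The adjusted p of this value ranged up to 0.992 over the 11 alternatives.

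In the library with high H19, some genes used by bone, and a gene of fat cells, were also higher than in any other library. Gpx3, a secreted peroxidase, was at 391 CPM there and at most at 62.3 CPM in the other 31 libraries. Mmp13, a collagenase of bone and cartilage, was at 18.9 CPM (at most 3.03 elsewhere), Ibsp, a bone matrix protein, at 8.14 CPM (at most 0.883), and Fabp4, a fatty acid-binding protein of fat cells, at 5.91 CPM (at most 2.52). Gpx3, Mmp13, and Fabp4 had the highest r with H19 over the 32 libraries, so that this library helped to choose them. The summed level of 10 bone genes, a list written after the data were seen, was 321 CPM in that library and 116 to 233 CPM in the others. Alpl made up 160 CPM of it (at most 141 elsewhere). Of the 10, 5 were highest there, whereas Sp7, Dmp1, Phex, Ctsk, and Col10a1 lay inside their ranges elsewhere. Igf2 was at 174 CPM in the same library, inside its range elsewhere. The part of bone or other attached tissue in the H19 value was not tested.

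**Figure D2:**
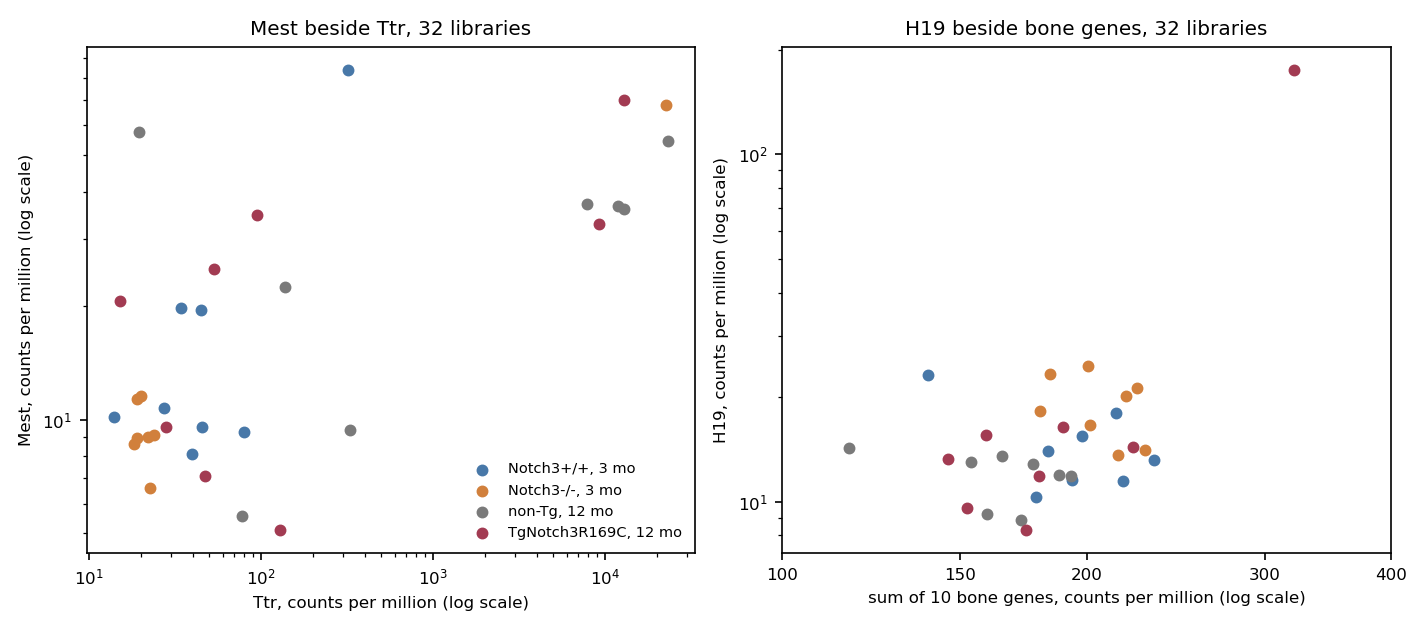
Left, Mest against Ttr, and right, H19 against the sum of 10 bone genes, in CPM on log axes, with 1 point per library colored by group. The 7 libraries with Ttr at 7895 CPM or more have Mest at 32.9 to 69.7 CPM, and TgNotch3R169C replicate 7 lies alone at the upper right for H19, at 175 CPM.

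Among members that restrain growth, Grb10, an adaptor that dampens insulin and IGF receptor signaling, was at medians of 134, 122, 110, and 114 CPM in Notch3+/+, Notch3-/-, non-Tg, and TgNotch3R169C mice. Its log2 fold change was -0.26 between the controls. Between the mutants it was -0.15 ± 0.07 (SE), with an unadjusted p of 0.0471 and an adjusted p of 0.249 (edgeR quasi-likelihood test), so that it was not called. Cdkn1c, the cyclin-dependent kinase inhibitor p57, ranged from 76.1 to 155 CPM over all libraries, with group medians of 104, 105, 111, and 99.9 CPM. Its largest difference was -0.21 (95% CI -0.49 to 0.07) in TgNotch3R169C against non-Tg mice, where 4 of the 8 non-Tg libraries had high Ttr. Cdkn1c had a median of 135 CPM in the 7 libraries with high Ttr and 101 CPM in the other 25, and the difference was -0.093 with the choroid plexus list as a covariate and -0.036 without the 8 libraries that stood apart. The antisense gene Gm44732, which overlaps Cdkn1c by 625 exonic bases, had 1.83% as many reads.

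Mest, a paternally expressed gene of the hydrolase family, varied widely between libraries of a group. It was at 8.10, 10.5, and 83.9 CPM (lowest, median, highest) in Notch3+/+, 6.60, 9.05, and 67.7 CPM in Notch3-/-, 5.56, 36.3, and 57.4 CPM in non-Tg, and 5.10, 22.8, and 69.7 CPM in TgNotch3R169C mice. The groups overlapped throughout. In the 7 libraries with high Ttr its median was 37.0 CPM (32.9 to 69.7), and in the other 25 it was 9.58 CPM (5.10 to 83.9), with 6 of those above 20 CPM. Of the 7, 4 were non-Tg libraries. The log2 fold change of Mest was 0.60 between the controls, and 0.92 without the 8 libraries that stood apart, in a range of -0.27 to 0.92 over the 11 alternatives. It was 0.63 between the mutants and 0.87 without the 8. In Notch3-/- mice it was -0.37, and -0.41 without the 8, and it ran from -1.19 without Notch3-/- replicate 8 to 0.42 without Notch3+/+ replicate 5. Mest also shares 912 exonic bases with Copg2, a gene on the opposite strand with 232% as many reads, so that reads of both cannot be told apart where strand was not used. The part of choroid plexus RNA in the Mest values was not tested.

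Dlk1, a transmembrane inhibitor of adipocyte differentiation that resembles Notch ligands, was at 4.17, 9.79, and 102 CPM (lowest, median, highest) in Notch3+/+ and 9.32, 16.4, and 28.7 CPM in Notch3-/- mice. It was at 9.41, 14.6, and 50.4 CPM in non-Tg and 5.96, 17.6, and 103 CPM in TgNotch3R169C mice. Single libraries set its means. The library at 102 CPM was Notch3+/+ replicate 5, which also held Prl, and the library at 103 CPM was TgNotch3R169C replicate 6, where Prl was at 0.91 CPM. Between the controls the log2 fold change was -0.41, and 0.41 without Notch3+/+ replicate 5. In Notch3-/- mice it was -0.62, and 0.20 without that library, and in TgNotch3R169C mice it was 0.48, and -0.27 without replicate 6. Neither mutant difference was called (edgeR quasi-likelihood test, adjusted p = 0.901 and 0.852). In each of these comparisons, the direction of Dlk1 thus did not hold without its highest library.

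Peg3 and Plagl1 are paternally expressed zinc finger proteins, and Plagl1 (Zac1) is known to regulate other imprinted genes. Peg3 had medians of 137, 136, 149, and 155 CPM in Notch3+/+, Notch3-/-, non-Tg, and TgNotch3R169C mice, with single libraries up to 298 CPM. Plagl1 had medians of 46.7, 48.3, 44.3, and 47.1 CPM, from 28.3 to 93.4 CPM over all libraries. Between the mutants the log2 fold change was 0.30 (95% CI -0.10 to 0.71) for Peg3 and -0.14 (95% CI -0.41 to 0.13) for Plagl1. Between the controls it was -0.05 for Peg3 and 0.12 without Notch3+/+ replicate 5, and -0.19 for Plagl1. Plagl1 was at 45.3 to 81.3 CPM (median 53.8) in the 7 libraries with high Ttr and at 28.3 to 93.4 CPM in the other 25, and its median was lower in the latter. Without the 8 libraries that stood apart, Plagl1 was at -0.33 between the controls, -0.058 between the mutants, and 0.39 in TgNotch3R169C against non-Tg mice (0.09 with them; edgeR quasi-likelihood test, adjusted p = 0.546 and 0.899). Neither gene was called in any test.

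The effect of each mutation at its own age was examined next. In Notch3-/- against Notch3+/+ mice, none of the 10 members was called, where 0.649% of 17714 genes were (edgeR quasi-likelihood test). H19 was the only member with an unadjusted p below 0.05, which differed by 0.37 ± 0.17 (SE) on the log2 scale (adjusted p = 0.611). In TgNotch3R169C against non-Tg mice none was called either, against 0.113% of 17731 genes, and again only H19 had an unadjusted p below 0.05, with the value that replicate 7 sets. Both comparisons share their control libraries with the comparison that chose the genes. Igf2bp2 was at -0.04 (95% CI -0.29 to 0.20) in Notch3-/- and 0.07 (95% CI -0.20 to 0.34) in TgNotch3R169C mice, and Gpc3 at -0.14 (95% CI -0.36 to 0.08) and 0.05 (95% CI -0.16 to 0.26). Between the mutants, where age, line, and genotype are confounded, Igf2bp2 was at -0.98 (95% CI -1.27 to -0.69). Gpc3 was at -0.48 there (95% CI -0.73 to -0.23). That comparison shares its libraries with those above, so that the intervals are not set against each other. Intervals for Mest and Dlk1 exceeded 1 log2 unit on at least 1 side in each mutant against its control. Sizable changes of these 2 genes were thus not detectable here.

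The difference between the changes in both mutants was tested over 18555 genes with the 4 groups fitted together, and 0.35% of them were called (edgeR quasi-likelihood test). None of the 10 members was called, and none had an unadjusted p below 0.05. The difference was 0.12 (95% CI -0.23 to 0.46) for Igf2bp2 and 0.19 (95% CI -0.11 to 0.49) for Gpc3. This contrast equals the difference between the mutants minus that between the controls, which chose the genes. The values for Igf2bp2 and Gpc3 are therefore not independent of that choice and are given as a description. It was largest for Dlk1, at 1.11 (95% CI -0.57 to 2.79), or 0.31 without the 8 libraries that stood apart, and for H19, at 1.1, or -0.28 without TgNotch3R169C replicate 7. DESeq2 called no member in either mutant or in this difference.

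**Figure D3:**
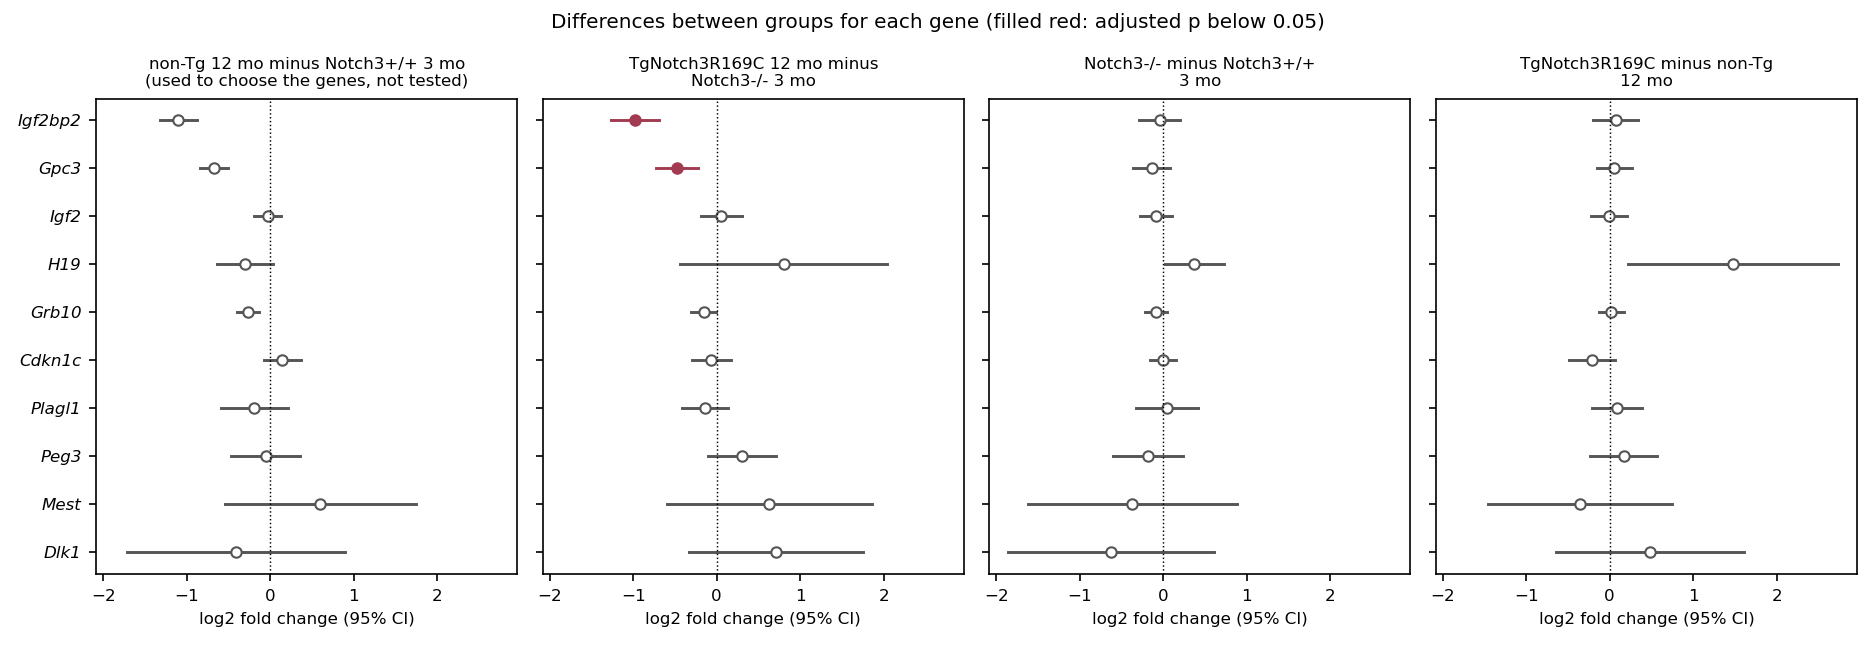
Log2 fold change (horizontal, points) with its 95% CI (lines) of each gene (vertical) between the control groups, which chose the genes and were not tested, between the mutant groups, and in each mutant against its control. Filled red points are called, and these are Igf2bp2, at -0.98, and Gpc3, at -0.48, between the mutant groups.

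Other genes of the same biology were examined from fixed lists. Of 48 other imprinted genes tested, 4 were called between the mutant groups, where 3.82% of all genes were (2.77% higher and 1.05% lower). Rasgrf1, a guanine nucleotide exchange factor for Ras, was higher by 1.02 ± 0.26 (SE) and Kcnk9, a potassium channel, by 1.29 ± 0.34 (SE) on the log2 scale in TgNotch3R169C mice at 12 months (edgeR quasi-likelihood test, adjusted p = 0.0376 and 0.0430). Peg13 was higher by 0.20, and Airn, the noncoding RNA that silences Igf2r on the paternal copy, was at -0.31. Median summed levels of 8 neuron markers were 368 CPM in Notch3-/- and 556 CPM in TgNotch3R169C libraries, beside the rise of Rasgrf1 and Kcnk9, which neurons express, and the part of neuronal RNA in it was not tested. Between the controls, where 7.92% of 17643 genes were called, 2 of the 48 were called, both lower: Slc38a4, an amino acid transporter, at -0.42 and Dio3, which inactivates thyroid hormone and lies in the same imprinted domain as Dlk1, at -0.89. In each mutant against its control, edgeR called 0 of the 48, and 3 had an unadjusted p below 0.05 in each of these comparisons, beside 7.69% of all genes in Notch3-/- and 7.27% in TgNotch3R169C mice.

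In the insulin-like growth factor pathway, 20 of 21 genes were tested. Igf1r and Igf2r, which encode the receptors that signal for and clear IGF2, were at -0.01 and 0.01 between the controls and at 0.0020 and -0.03 between the mutants, and neither was called. Between the mutants 1 of 20 was called, where 3.82% of all genes were, 2.77% higher. Stc2, which inhibits the protease that frees IGFs from their binding proteins, was higher by 0.84 ± 0.21 (SE; edgeR quasi-likelihood test, adjusted p = 0.0334). Between the controls 3 were called, Grb14 (0.89) and Irs2 (0.39) higher and Pappa2 (-1.17) lower, where 3.87% of all genes were higher and 4.05% lower. Pappa2, a protease that cleaves IGF-binding proteins, was also the only gene of the 4 lists called in Notch3-/- mice, at -1.15 ± 0.18 (SE; adjusted p = 0.00304). Its level was 3.32, 6.50, and 9.23 CPM (lowest, median, highest) in Notch3+/+ and 2.25, 2.85, and 3.66 CPM in Notch3-/- libraries. It was at 2.04, 2.71, and 4.03 CPM in non-Tg and 2.68, 3.08, and 14.7 CPM in TgNotch3R169C libraries. The changes of Pappa2 in both mutants differed by 1.81 ± 0.39 (SE; adjusted p = 0.0238), and it was the only gene of these lists called in that test. Its change in TgNotch3R169C mice alone was 0.66 ± 0.34 (SE; adjusted p = 0.696) and was not called. That group had a median of 3.08 CPM and a highest library at 14.7 CPM, and values without that library were not examined for Pappa2.

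Of 16 fetal growth genes tested, 3 were called between the mutants, where 3.82% of all genes were, 1.05% lower and 2.77% higher. Ccnd2, the D-type cyclin of proliferating cells, was at -0.73 ± 0.10 (SE; edgeR quasi-likelihood test, adjusted p = 0.000769), with 120 to 193 CPM in Notch3-/- and 76.0 to 114 CPM in TgNotch3R169C libraries. Igf2bp1, the paralog of Igf2bp2, was at -0.99 ± 0.26 (SE; adjusted p = 0.0459) at low levels, 1.28 to 3.47 CPM against 0.573 to 1.75 CPM. Hmga1, a chromatin protein of dividing cells, was higher by 0.79 ± 0.15 (SE; adjusted p = 0.00820). Between the controls Ccnd2 (-0.80), E2f3 (-0.28), and Ezh2 (-0.40) were called, all lower, where 4.05% of all genes were, and Igf2bp1 was at -0.92 (adjusted p = 0.0501). Of the 5 other glypicans, edgeR called 0 between the mutants (2 with an unadjusted p below 0.05, beside 19.4% of all genes), and between the controls Gpc6 was lower (-0.35) and Gpc1 higher (0.24).

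Some members varied together within groups. Over 32 libraries, after the group means were subtracted, 6 of 45 member pairs passed both a Pearson and a Spearman permutation test (100000 permutations within groups, two-sided, Benjamini-Hochberg adjusted p below 0.05 in each), all with positive correlations. For Peg3 and Plagl1, r was 0.73 (permutation p = 3e-05, adjusted 0.00135) and rho 0.58 (p = 0.00124, adjusted 0.0114), with r = 0.62 without the 2 libraries farthest from the median and 0.66 over the 24 libraries that did not stand apart. Its r within single groups was 0.53 to 0.89. The 24 libraries gave a lower value for Mest and Plagl1, at 0.33 against 0.71 over 32 (permutation p = 0.00012, adjusted 0.0027; rho 0.64, p = 0.00025, adjusted 0.0063). For this pair r was 0.64 without the 2 farthest libraries and 0.56 to 0.89 within single groups. The part of the libraries with Ttr or Prl in it was not tested. Dlk1 followed Peg3, with r = 0.69 (permutation p = 0.00019, adjusted 0.00285) and rho = 0.62 (p = 0.00095, adjusted 0.0114), and r = 0.50 without the 2 farthest libraries. Within single groups this r ran from -0.04 to 0.91. Dlk1 and Plagl1 had r = 0.59 (permutation p = 0.00059, adjusted 0.00531) and rho = 0.58 (p = 0.00127, adjusted 0.0114), with r = 0.37 without the 2 farthest libraries. Plagl1 and Cdkn1c had r = 0.57 (permutation p = 0.00049, adjusted 0.00531) and rho = 0.65 (p = 0.00028, adjusted 0.0063), with r = 0.53 without the 2 farthest libraries and 0.38 over the 24.

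Igf2 and Grb10 formed a pair of their own, with r = 0.55 (permutation p = 0.00283, adjusted 0.0182) and rho = 0.52 (p = 0.00421, adjusted 0.0316). The value was 0.42 without the 2 farthest libraries and 0.60 over the 24 libraries, and 0.39 to 0.68 within single groups. Igf2 and H19, neighbors under shared control, had r = 0.25 and rho = 0.17 (permutation p = 0.260 and 0.359, adjusted 0.556 and 0.590), from -0.45 to 0.62 within groups. Igf2 and Igf2bp2 had r = -0.01 and rho = 0.05 (permutation p = 0.962 and 0.801, adjusted 0.978 and 0.892). Of 80 relations between a member and the mean level of a marker list of 8 cell types, 0 passed both adjusted tests (11 had both unadjusted p below 0.05). With the microglia and macrophage list, 3 passed the adjusted Pearson test alone, all negative: Peg3 (r = -0.70, rho = -0.58), Mest (-0.59, -0.50), and Plagl1 (-0.62, -0.54), with permutation p = 6e-05, 0.00068, and 0.00033 for r, adjusted 0.0048, 0.0181, and 0.0132, and an adjusted p of 0.0576 for each rho. Without the 2 farthest libraries r was -0.70, -0.56, and -0.64, and over the 24 libraries it was -0.51, -0.19, and -0.31. Libraries share depth and dissection, which can move genes together.

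**Figure D4:**
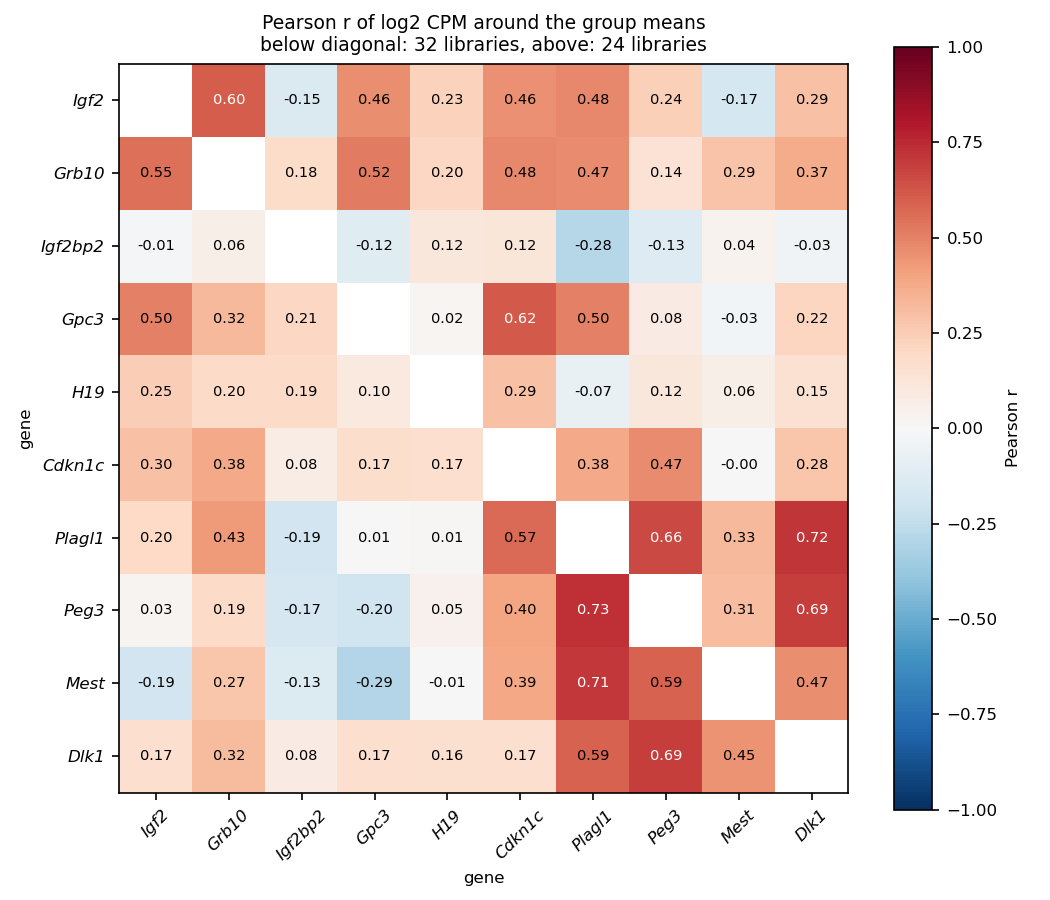
Pearson r of log2 CPM between pairs of the 10 genes after subtracting the group means, over 32 libraries below the diagonal and over the 24 libraries with Ttr and Prl below 1000 CPM above it. The block of Plagl1, Peg3, Mest, and Dlk1 is positive in both triangles, whereas Mest with Plagl1 drops from 0.71 to 0.33.

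As a description, the genes closest to each member were taken over the same 32 libraries, among 15397 genes. The highest r was 0.93 for Peg3 with Zdbf2, another paternally expressed imprinted gene. It was 0.91 for Dlk1 with Irs4, 0.87 for Plagl1 with Maged1, 0.87 for Gpc3 with Mrc2, an endocytic collagen receptor, and 0.85 for Grb10 with Klf15. Mest was closest to Mmp15 (0.84), H19 to Gpx3 (0.78), Cdkn1c to Smpd1 (0.75), Igf2 to Trim63 (0.72), and Igf2bp2 to B4galt5 (0.61). Igf2bp2 thus had the loosest neighbors of the 10, and its coefficient of variation within groups was 11.1% to 21.6%.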

How the data were processed

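The authors deposited whole-number read counts per Ensembl gene for 32 libraries, 8 per group, without normalization. The submitters' processing notes name bcl2fastq 2.20.0.422, cutadapt 1.10, Bowtie2 2.2.8, STAR 2.5.3a, HTSeq 0.6.1p1, and build mm39. The annotation and strand setting are not given in the sources used here. Of 55357 genes, 16744 had no counts and 52081 matched a symbol.

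Groups were compared with edgeR 4.0.16 under R 4.3.3 (filterByExpr, TMM, quasi-likelihood test), 2 groups per fit, with Benjamini-Hochberg adjustment over all genes tested. A gene was called at an adjusted p below 0.05. CPM use TMM-scaled library sizes, and correlations used log2 CPM with a prior count of 2. The tests were checked on simulated data. No libraries were duplicates.

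Members and lists were chosen with earlier results of these data known. Genes named beside the members are those of the lists that were called, up to 8 per list and comparison, and the closest gene to each member by r. The bone list and the genes Gpx3, Mmp13, Ibsp, and Fabp4 were chosen after their values were seen. Alternatives were RLE normalization, no filter, DESeq2 1.42.0, all groups in 1 fit, a replicate block, 5 covariates, each library left out, and, chosen after the data were seen, leaving out the 8 libraries with Ttr or Prl over 1000 CPM. RefSeq windows and GENCODE vM21 are of another build (GRCm38) than the counts. Correlations left out the choroid plexus and pituitary lists, on which libraries fall into separate clusters.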

Additional observations from a re-analysis of the deposited data

Results flagged for a closer look

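Of 40 sets of 8 libraries (10 genes in 4 groups), 11 had a highest library whose gap to the next exceeded 0.526 of the range of the set. About 2 would be expected for independent sets drawn from a normal distribution. These sets share libraries and their distribution was not checked, so that 2 is no firm reference for them. Values are in CPM. In TgNotch3R169C mice, H19 was at 175 in replicate 7 (8.27 to 16.4 in the others), Dlk1 at 102.6 in replicate 6 (5.96 to 28.4), and Mest at 69.7 in replicate 5 (5.10 to 34.7). In Notch3+/+ mice, replicate 5 was highest for 3 genes: Dlk1 at 102.4 (4.18 to 38.3 in the others), Mest at 83.9 (8.10 to 19.7), and Plagl1 at 93.5 (37.9 to 52.8). In Notch3-/- mice, replicate 8 was highest for Mest at 67.7 (6.60 to 11.5), Plagl1 at 81.3 (43.2 to 58.3), and Peg3 at 222 (99.7 to 153.7), and replicate 4 for Dlk1 at 28.7 (9.32 to 17.8). In non-Tg mice, Dlk1 was at 50.4 in replicate 8 (9.41 to 23.1). Among these libraries, Notch3-/- replicate 8 and TgNotch3R169C replicate 5 had Ttr above 1000 CPM, and Notch3+/+ replicate 5 had Prl above 1000 CPM. Igf2, Igf2bp2, Gpc3, Cdkn1c, and Grb10 had no such library.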

How the results depend on the processing

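Between the mutant groups, 2 members were called. The number was 1 with the replicate block, the fibroblast covariate, or the neuron covariate, and 0 with the smooth muscle covariate. With DESeq2 it was 3, and with a library left out 1 to 2. Over all genes, 682 of 17865 were called in the main fit. That total was 598, 414, 218, and 59 with the block and the fibroblast, neuron, and smooth muscle covariates. It was 1758 of 21972 with DESeq2 and 409 to 1169 with a library left out. Gpc3 was lost in the fits with 1 call (adjusted p = 0.0925, 0.0810, and 0.215), with a log2 fold change of -0.47, -0.43, and -0.42 there and of -0.49 to -0.40 over the 11 alternatives. In the other comparisons 0 members were called under every alternative run. Same-numbered libraries deviated together with r over 0.1 in 4, 4, 6, and 3 of 8 pairs (Notch3-/- against Notch3+/+, TgNotch3R169C against non-Tg, between the mutants, between the controls), and 3, 1, 3, and 2 libraries correlated best with their own number, so the block is not taken as pairing.

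Signs that turned belonged to differences that were not called, except H19 with DESeq2, and the cause was not tested. In Notch3-/- mice, Dlk1 was at 0.26 and Cdkn1c at -0.00092 with the block, Cdkn1c at -0.0093 with the choroid plexus covariate, Igf2bp2 at 0.019, Plagl1 at -0.25, and Cdkn1c at -0.097 with the smooth muscle covariate, and Igf2bp2 at 0.046 and Dlk1 at 0.19 without the 8 libraries. In TgNotch3R169C mice, Gpc3 was at -0.0066 with the choroid plexus covariate, Peg3 at -0.025, Plagl1 at -0.070, and Grb10 at -0.075 with the smooth muscle covariate, Dlk1 at -0.19, Peg3 at -0.0999, and Grb10 at -0.0014 with the neuron covariate, and Igf2 at 0.0038 without the 8 libraries. Between the mutants, H19 was at -0.53 with DESeq2 and -0.16 with the block, Peg3 at -0.058 and Mest at -1.06 with the smooth muscle covariate, and Peg3 at -0.049 with the neuron covariate. In the difference between both changes, H19 was at -0.26 with DESeq2, and Mest at -0.13 with the block, -0.14 with Xist, and -0.064 without the 8 libraries.

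With a library left out, ranges that crossed 0 in Notch3-/- mice were -0.096 to 0.011 for Igf2bp2, -0.79 to 0.20 for Dlk1, -0.29 to 0.0026 for Peg3, -1.19 to 0.42 for Mest, -0.058 to 0.24 for Plagl1, and -0.029 to 0.046 for Cdkn1c. In TgNotch3R169C mice they were -0.059 to 0.042 for Igf2, -0.023 to 0.13 for Igf2bp2, -0.0026 to 0.11 for Gpc3, -0.27 to 0.87 for Dlk1, and -0.017 to 0.052 for Grb10. Between the mutants they were -0.58 to 0.94 for H19 and -0.043 to 0.87 for Dlk1, and in the difference between both changes -0.28 to 1.24 for H19, -0.77 to 0.84 for Mest, and -0.14 to 0.15 for Plagl1.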
